A study of Cicer arietinum with 8 samples.

Results

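Ca_04503 and Ca_04504 are a pair of chickpea genes with consecutive identifiers that the study placed in the QTL-hotspot, a stretch of linkage group CaLG04 that carries quantitative trait loci for drought tolerance. The study annotates Ca_04503 as a member of the AP2-EREBP family and Ca_04504 as a dehydration-responsive element binding (DREB) transcription factor, itself a branch of that family. They are 2 of the 30978 loci with deposited values, where Ca_04503 is locus XLOC_009637 and Ca_04504 is locus XLOC_009638. Each gene is the single identifier of its locus. The pair was chosen by its drought values, since the FPKM of both genes was far lower under drought stress in both genotypes, so the drought ratios below describe that choice and were not tested.

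The study sequenced root RNA of ICC4958, labelled drought-tolerant (DT), and ICC1882, labelled drought-sensitive (DS). Plants of both genotypes grew in a growth chamber, and per the labels the drought plants (D) received no water for 11 days from the age of 16 days, the control plants (C) were watered every other day, and roots of both were taken at 27 days. The study's methods give another starting age and another length of the stress. There are 8 libraries, 2 for each condition, DS(C), DS(D), DT(C) and DT(D), and a column of deposited values covers the 2 libraries of its condition. The values are FPKM, sequenced fragments scaled to the length of the transcript and to the size of the library, so levels can be compared between genes of different length. With 1 value per condition the spread between libraries is not visible, no test was possible, and every difference below compares pooled values. The number of fragments behind a value is unknown. Whether a lower value means fewer cells that express a gene or less of its RNA in each cell cannot be told apart in whole roots.

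Proteins of the AP2-EREBP family bind DNA through the AP2 domain. In Arabidopsis, DREB proteins bind the dehydration-responsive element in the promoters of stress genes and activate them. Some DREB genes of Arabidopsis are switched on mainly by cold and others by dehydration and salt, and their transcripts can rise and fade again within hours of the onset of a stress. The files and the gene table at hand pair no names with these identifiers, so the family names are those of the study, and neither the family labels nor the root tissue could be checked against marker genes.

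The study designed RT-qPCR primers for Ca_04504. They are shown because the study lists them for the gene that is called DREB here, and they were not matched to a transcript sequence. Both are written 5′ to 3′ in lower case, with no base singled out.
Ca_04504 forward: ggtgtgtgaagtgagggaacct
Ca_04504 reverse: cgccatctcgggattagga
The forward primer has 22 bases, of which 54.5% are G or C, and the reverse primer has 19 bases, of which 57.9% are G or C.

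Ca_04504, the DREB gene, had 350.2 FPKM in DT(C) and 122 FPKM in DS(C), against 17.7 FPKM in DT(D) and 10.1 FPKM in DS(D). Both watered conditions were thus above both drought conditions, and within each treatment the tolerant genotype had the higher value. In watered roots of DT it was an abundant transcript, with rank 701 among the 30978 loci and a higher FPKM than 96.6% of the 20745 loci that reached an FPKM of 1 in some condition. In DS(C) it was at rank 2069, above 90.03% of those loci. Under drought stress it was a transcript of middling abundance, above 56.6% of the same loci in DT(D) and 43.2% in DS(D).

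Ca_04503, the other AP2-EREBP gene, had 12.7 FPKM in DT(C) and 5.41 FPKM in DS(C), against 0.780 FPKM in DT(D) and 0.297 FPKM in DS(D). The order of the 4 conditions was the same as for Ca_04504, from DT(C) over DS(C) and DT(D) to DS(D). Its level was moderate in watered roots, above 46.8% of the same loci in DT(C) and 31.0% in DS(C). Both drought values lay under an FPKM of 1, above only 3.61% of those loci in DT(D) and 1.74% in DS(D). Because the pooled values hide the spread between libraries, they do not show for either gene whether neighbouring conditions in this order differ beyond it. As a ratio, the widest step of the order in both genes lay between the watered and the drought values. DS(C) was 6.90 times DT(D) for Ca_04504 and 6.94 times DT(D) for Ca_04503. In FPKM the widest step lay between DT(C) and DS(C).

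**Figure D1:**
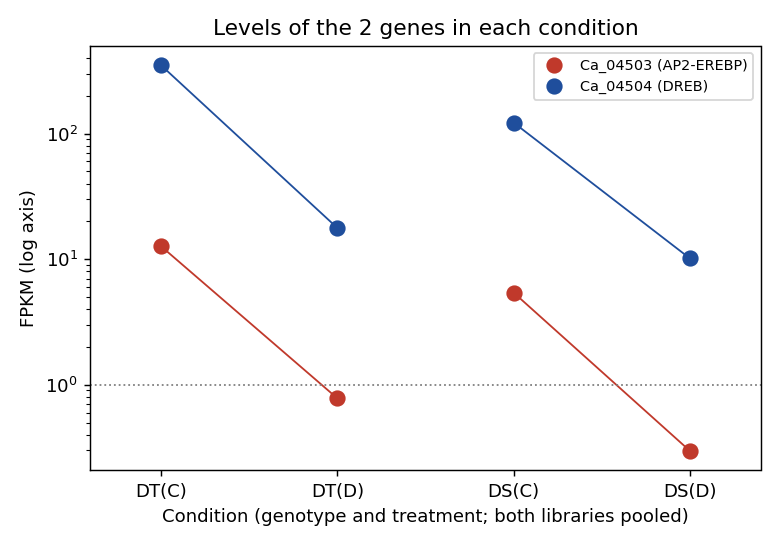
FPKM on a log axis (y) of Ca_04503 (AP2-EREBP, red) and Ca_04504 (DREB, blue) in the 4 conditions (x), 1 pooled value of 2 libraries per point, with lines joining control and drought within a genotype and a dotted line at an FPKM of 1. Both genes are highest in DT(C) and lowest in DS(D), and both drought values of Ca_04503, 0.780 and 0.297, lie under the dotted line.

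Ca_04504 was more abundant than Ca_04503 by a similar factor in every condition. The FPKM of Ca_04504 was 27.6 times that of Ca_04503 in DT(C), 22.6 times in DS(C), 22.7 times in DT(D) and, at the most, 34.1 times in DS(D). Over the same conditions the level of Ca_04504 itself ranged over a factor of 34.6, and that of Ca_04503 over a factor of 42.7. Both genes were chosen for the same direction under drought stress, which fixes part of this likeness.

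For Ca_04504 the log2 ratio of drought to control was -4.31 for DT(D/C) and -3.59 for DS(D/C), so DT(D) kept 5.06% of the control level and DS(D) kept 8.29%. In FPKM the difference between control and drought was 332.5 in DT and 112 in DS. For Ca_04503 the ratio was -4.02 for DT(D/C) and -4.19 for DS(D/C), with 6.15% of the control level left in DT(D) and 5.49% in DS(D). A log2 ratio of -1 or less was also found for 8.88% of the loci in DT(D/C) and for 8.66% in DS(D/C), counted over loci whose FPKM reached 1 in either condition of the comparison. In DT(D/C), 20187 of these loci had values above 0 in both conditions, and Ca_04504 was number 70 and Ca_04503 number 105 from the lowest ratio. In DS(D/C), Ca_04503 was number 35 and Ca_04504 number 72 of 19926 loci. For Ca_04503 the size of the ratio rests on drought values under an FPKM of 1, and with 1 FPKM added to both values it was -2.94 for DT(D/C) and -2.31 for DS(D/C).

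**Figure D2:**
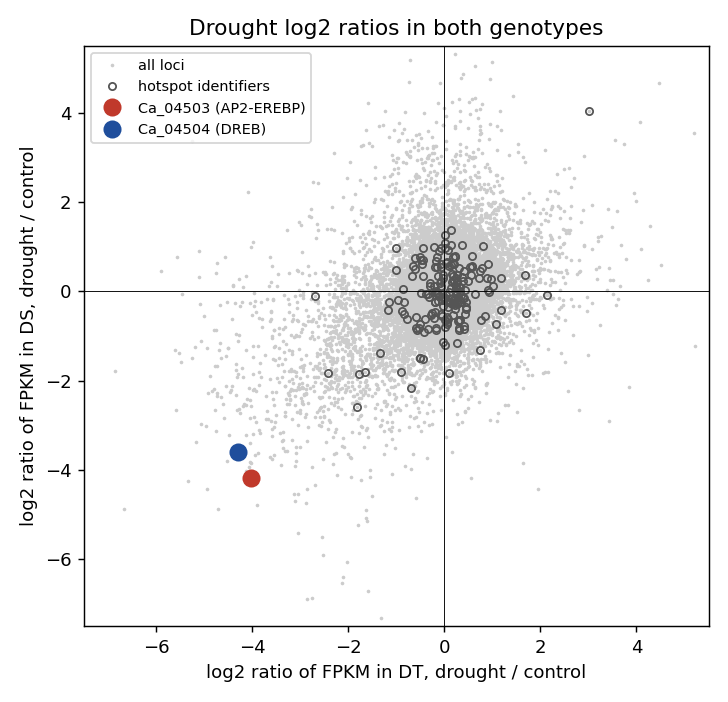
Log2 ratio of FPKM, drought to control, in DT (x) against DS (y) for the 20231 loci above 0 in all conditions and with an FPKM of at least 1 in one of them (grey dots, 8 of them outside the axes), for 196 loci with hotspot identifiers (open circles, both genes included), and for Ca_04503 (red) and Ca_04504 (blue). Ca_04503 at -4.02 and -4.19 and Ca_04504 at -4.31 and -3.59 lie apart from the other hotspot loci, at the lower left.

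The question whether drought stress lowered these genes to a different extent in the 2 genotypes is addressed by the difference of the log2 ratios, DT(D/C) minus DS(D/C). For Ca_04504 this difference was -0.71, the larger relative decrease being in DT. For Ca_04503 it was 0.16, the larger relative decrease being in DS. A difference at least as large as that of Ca_04504, in either direction, was found for 34.7% of 20231 loci, and one at least as large as that of Ca_04503 for 82.5%, so neither stands out from the loci as a whole. The direction for Ca_04503 held only for the values as deposited, since its difference was -0.64 with 1 FPKM added to all values, -0.065 with 0.1 FPKM added and -0.27 with every column rescaled to an equal total. That of Ca_04504 stayed below 0 and was -1.15 after rescaling. Rescaling shifts this difference by the same amount at every locus, so the shift is not particular to either gene. The column totals differed most in DS, with a summed FPKM of 1662837 in DS(C) and 1204308 in DS(D).

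Between the genotypes, both genes were higher in DT under control conditions. The choice by drought values did not use this comparison, although it shares its control values with the drought ratios. The study lists both genes as co-expressed in DT(C), a grouping made from the FPKM of these same samples. Their higher DT(C) values are thus not independent of how the study came to name them. Ca_04504 had 2.87 times the FPKM of DS(C) in DT(C), a log2 ratio of 1.52, and Ca_04503 had 2.34 times, a log2 ratio of 1.23. In DT(C)/DS(C), 11.1% of the loci had a log2 ratio of 1 or more, and the ratio was at least as high as that of Ca_04504 for 4.49% and as that of Ca_04503 for 7.05% of 19980 loci. The median log2 ratio of all loci in this comparison was 0.09, and it was not the same at every level of expression. In the tenth of expressed loci with a mean level like that of Ca_04504 the median was -0.10, and in the tenth with a mean level like that of Ca_04503 it was 0.32. Relative to these medians, a centring chosen after seeing the data, Ca_04504 had a log2 ratio of 1.62 and Ca_04503 one of 0.91, under the threshold of 1.

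Under drought stress the tolerant genotype again had the higher value of both genes. Ca_04504 had 1.75 times the FPKM of DS(D) in DT(D), a log2 ratio of 0.81, whereas 6.73% of the loci in DT(D)/DS(D) had a log2 ratio of 1 or more. At 8.99% of 20089 loci the ratio was at least as high as that of Ca_04504. Ca_04503 had 2.63 times the FPKM of DS(D) in DT(D), a log2 ratio of 1.39, but both values lay under an FPKM of 1 and the locus was not counted in this comparison. With 1 FPKM added to both values its log2 ratio was 0.46.

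The genes with the nearest identifier numbers had drought ratios much closer to 0. Of the 20 genes numbered within 10 of the pair, from Ca_04493 to Ca_04514, 14 had an FPKM of at least 1 in some condition, 4 stayed under 1 and 2 were listed at 0 throughout. None of the 14 had a log2 ratio of -1 or less, or of 1 or more, in DT(D/C) or DS(D/C). Over all loci these shares were 8.88% and 5.03% for DT(D/C), against 8.66% and 8.21% for DS(D/C). With every column rescaled to an equal total, 3 of the 14 had a DS(D/C) ratio of 1 or more, beside 4030 of the 20093 loci counted. As deposited, the log2 ratios of the 14 lay between -0.88 and 0.91 in DT(D/C), with a median of -0.30, beside a median of 0.02 over all loci. In DS(D/C) they lay between -0.91 and 0.91, with a median of -0.10, beside -0.01 over all loci. Without the expression filter, 3 neighbours had a DT(D/C) ratio of -1 or less and a further one went to a value listed at 0 in DT(D), while 1 had a DS(D/C) ratio of -1 or less, all of them with FPKM under 1.

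The genes numbered directly before and after the pair were Ca_04502 and Ca_04505, for which no function is given in the sources used here. Ca_04502 had 6.11 FPKM in DT(C) against 1.37 in DS(C), and 5.63 in DT(D) against 2.57 in DS(D). It was, like the pair, higher in DT under control conditions, with a log2 ratio of 2.16 in DT(C)/DS(C), but it had no lower value under drought stress in DS. Ca_04505 had 44.1 FPKM in DT(C) against 30.1 in DS(C), and 41.5 in DT(D) against 34.2 in DS(D), within a narrow range. In DT(C)/DS(C), 2 of the 14 neighbours had a log2 ratio of 1 or more, namely Ca_04502 and Ca_04499, which is 14.3%, near the 11.1% of all loci. The median of the 14 was 0.17, beside 0.09 over all loci. The deposited values give no positions, so distances between these genes are not known here.

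**Figure D3:**
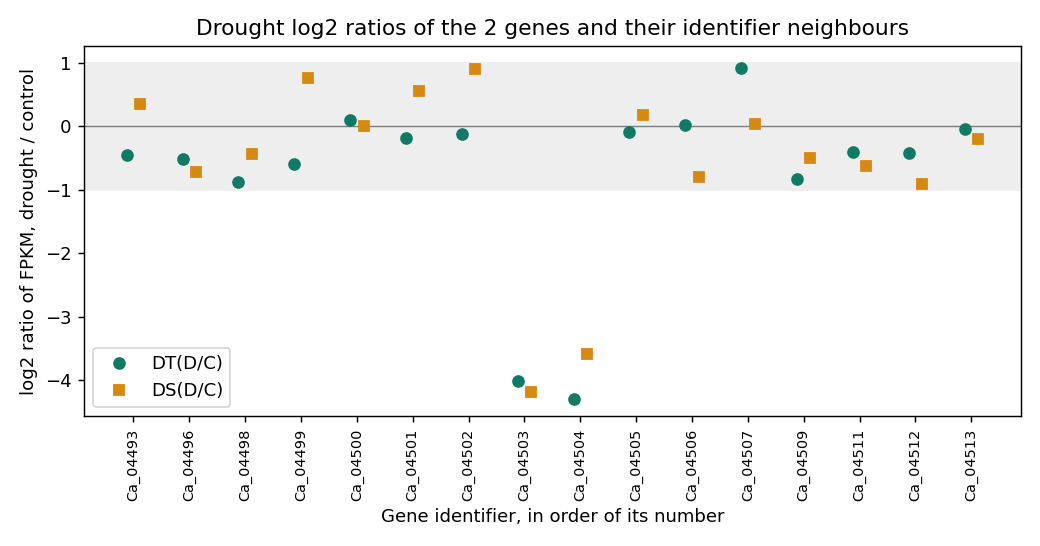
Log2 ratio of FPKM, drought to control (y), in DT (green circles) and DS (orange squares) for Ca_04503, Ca_04504 and the 14 genes within 10 identifier numbers of them that reached an FPKM of 1 in some condition (x, in order of the identifier). The grey band marks log2 ratios between -1 and 1, which holds all 14 neighbours, whereas the pair lies between -4.31 and -3.59.

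Identifiers from Ca_04370 to Ca_04632, the lowest and highest numbers that the study's text places in the QTL-hotspot, covered 257 loci, of which 199 had an FPKM of at least 1 in some condition. The study counts more annotated genes in its interval, so this range leaves out part of it. Among the 257 loci Ca_04504 had the rank 10 by FPKM in DT(C), 22 in DS(C), and the ranks 88 in DT(D) and 120 in DS(D). Ca_04503 had the rank 110 in DT(C) and 203 in DS(D). In both drought comparisons the pair held the lowest and second lowest log2 ratios of the hotspot loci with values above 0 in both conditions, 196 for DT(D/C) and 191 for DS(D/C). These are the ratios for which the pair was chosen. Without the pair, 13 of 196 hotspot loci had a log2 ratio of -1 or less for DT(D/C) and 15 of 190 for DS(D/C), or 6.63% and 7.89%, near the shares over all loci. Among 191 hotspot loci counted in both drought comparisons, 7 were lower in both, or 3.66%, beside 3.92% of 19674 loci overall. The 5 others, which were named after their values were seen, were Ca_04377, Ca_04383, Ca_04406, Ca_04528 and Ca_04564. Of the 7, Ca_04377, Ca_04503 and Ca_04504 also had a log2 ratio of 1 or more in DT(C)/DS(C). This is 1.57% of the 191 hotspot loci, beside 0.966% of the 19674 loci. The pair, chosen for its lower drought values, is counted in this share and in the 3.66%. Neither share therefore describes the hotspot apart from that choice. Ca_04377 was much lower in level than Ca_04504, with 7.22 FPKM in DT(C) against 1.14 in DS(C), and 2.34 in DT(D) against a value listed at 0 in DS(D).

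The study names 10 other transcription factor genes in the QTL-hotspot, and all 10 had an FPKM of at least 1 in every comparison. It lists them among its co-expressed genes, which were grouped by the FPKM of these same samples. The list is thus not independent of the values compared here and need not be complete. The third AP2-EREBP gene among them, Ca_04370, had 25.5 FPKM in DT(C) against 22.7 in DS(C), and 17.1 in DT(D) against 12.4 in DS(D). Its values, too, were lower under drought stress in both genotypes, but its log2 ratios of -0.57 for DT(D/C) and -0.87 for DS(D/C) were within the threshold, and DT(C) exceeded DS(C) by 0.16 on the log2 scale only. In DT(D/C), 1 of the 10 genes had a log2 ratio of -1 or less and 1 a log2 ratio of 1 or more, beside 8.88% and 5.03% of all loci, and their median was 0.03. In DS(D/C), 1 of the 10 had a log2 ratio of -1 or less and none a ratio of 1 or more, beside 8.66% and 8.21% of all loci, and their median was 0.52. After the columns were rescaled to an equal total, none of the 10 had a ratio of -1 or less in either drought comparison. Over all loci counted, 1743 of 20326 did in DT(D/C) and 951 of 20093 in DS(D/C). A DS(D/C) ratio of 1 or more was then found for 5 of the 10, beside 4030 of those 20093 loci.

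The 3 genes of this list past the threshold in a drought comparison differed from the pair in that none was past it in both genotypes. Ca_04518, of the MADS-box family of DNA-binding proteins, had 13.7 FPKM in DT(C) against 7.97 in DS(C), and 6.85 in DT(D) against 11.1 in DS(D). Its DT(D/C) ratio lay at the threshold of -1 and its DS(D/C) ratio was 0.47. Ca_04584 encodes an OVATE family protein (OFP), a group known in Arabidopsis mainly as repressors of transcription, and had 2.64 FPKM in DT(C) against 7.69 in DS(C), and 6.02 in DT(D) against 5.76 in DS(D). It was thus higher under drought stress in DT, with a log2 ratio of 1.19, and lower in DT than in DS under control conditions, with a log2 ratio of -1.54. Ca_04621, of the MYB family, had 1.39 FPKM in DT(C) against 1.90 in DS(C), and 2.34 in DT(D) against 0.770 in DS(D), and its log2 ratios were 0.75 for DT(D/C) and -1.30 for DS(D/C). The values of Ca_04621 are low. With 1 FPKM added to both values none of the 10 genes was past the threshold in either drought comparison. Of 20326 loci counted in DT(D/C), 1489 were then lower and 633 higher. Of 20093 in DS(D/C), 1408 were lower and 919 higher.

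The remaining 6 genes of the list are Ca_04385 and Ca_04387 (Trihelix), Ca_04456 (RWP-RK), Ca_04488 (heat shock factor, HSF), Ca_04596 (Alfin-like) and Ca_04622 (SNF2). None of these had a drought log2 ratio of -1 or less or of 1 or more. In DT(C)/DS(C), Ca_04622 was the single gene of the 10 with a log2 ratio of 1 or more, at 1.06, where DT(C) had 6.64 FPKM and DS(C) 3.17, beside 11.1% of all loci. With 1 FPKM added to both values none of the 10 had a ratio of 1 or more in this comparison, beside 1458 of the 20231 loci counted. After rescaling 3 had one, beside 3552 of those loci. A log2 ratio of -1 or less was found for Ca_04584 alone of the 10, beside 5.17% of all loci. In DT(D)/DS(D), Ca_04621 alone had a log2 ratio of 1 or more, at 1.60, beside 6.73% of all loci, and it was under 1 with 1 FPKM added to both values. None of the 10 had a ratio of -1 or less there, beside 5.09% of all loci.

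**Figure D4:**
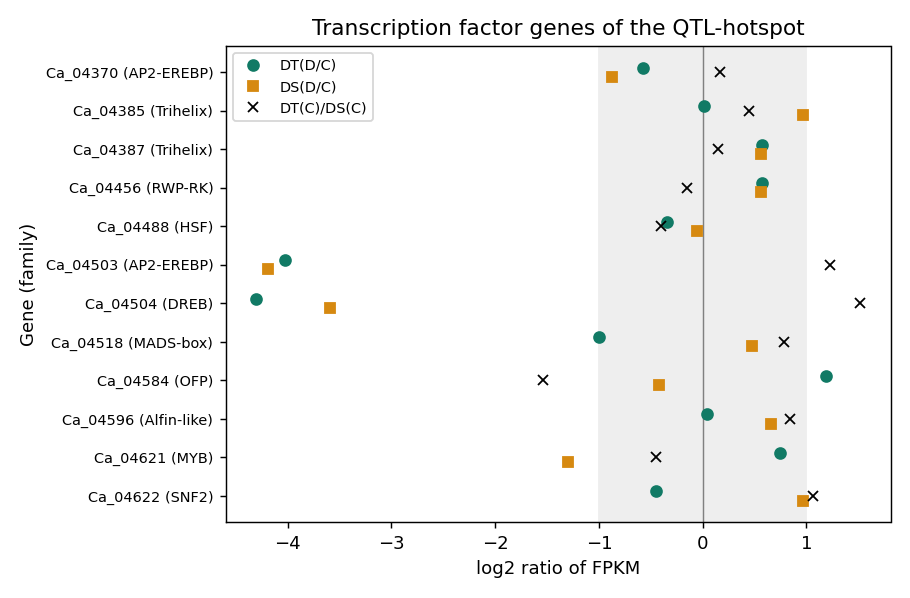
Log2 ratios of FPKM (x) in DT(D/C) (green circles), DS(D/C) (orange squares) and DT(C)/DS(C) (crosses) for the 12 transcription factor genes that the study names in the QTL-hotspot (y, with family). The grey band marks log2 ratios between -1 and 1. Ca_04503 and Ca_04504 have both drought ratios at or below -3.59, and the next lowest drought ratio is -1.30, that of Ca_04621 in DS(D/C).

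To find the loci with the most similar pattern, the values of each locus over the 4 conditions were put on the log2(FPKM + 1) scale and centred on their mean, and the Euclidean distance to each gene was taken over 17667 other loci that carry an identifier and reached an FPKM of 1. Nearest to Ca_04504 were Ca_00861, Ca_01683, Ca_00422, Ca_03495 and Ca_22597, at distances from 0.393 to 0.601, where the median locus was at 4.05. No function is given for these identifiers in the sources used here. Ca_00861, the nearest, had 170 FPKM in DT(C) against 58.1 in DS(C), and 7.64 in DT(D) against 6.24 in DS(D), the same order of conditions as Ca_04504 at a lower level. All 5 were highest in DT(C) and lowest in DS(D), with log2 ratios from -5.16 to -3.94 for DT(D/C) and from -4.88 to -3.20 for DS(D/C).

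Nearest to Ca_04503 were Ca_04863, Ca_10566, Ca_11907, Ca_16662 and Ca_02709, at distances from 0.0811 to 0.138, where the median locus was at 2.78. Each of them was far more abundant than Ca_04503, with 136 to 994 FPKM in DT(C) beside 12.7. Their log2 ratios without a pseudocount were smaller than those of Ca_04503, from -3.21 to -2.87 for DT(D/C) and from -2.50 to -2.29 for DS(D/C), since adding 1 FPKM shrinks the ratio of a gene at the level of Ca_04503 more than theirs. On this scale Ca_04504 had place 324 among the loci nearest to Ca_04503, and Ca_04503 had place 53 among those nearest to Ca_04504.

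With 0.1 FPKM added in place of 1, the pair came together. Part of the likeness within the pair, on any measure, is fixed by the choice of both genes for lower drought values. Ca_04504 was then the nearest of the 17667 loci to Ca_04503, and Ca_04503 was second nearest to Ca_04504, both at a distance of 0.345. Ca_05813, with 42.1 FPKM in DT(C) against 14.1 in DS(C), and 2.54 in DT(D) against 1.35 in DS(D), was then the nearest to Ca_04504 and the second nearest to Ca_04503. Of the 5 loci nearest on the first scale, 2 stayed among the 5 nearest to Ca_04504 and none among the 5 nearest to Ca_04503. Loci were also ranked by Pearson correlation over the 4 conditions on the log2(FPKM + 1) scale. Then 1 of the 5 first loci stayed among the 5 nearest to Ca_04503 and none among the 5 nearest to Ca_04504. The pair had the places 5 and 7 of each other. With only 4 conditions, high correlations were frequent, since 156 loci reached 0.99 with Ca_04503 and 160 with Ca_04504. Which loci are called most similar therefore depends on the pseudocount and on the measure.

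**Figure D5:**
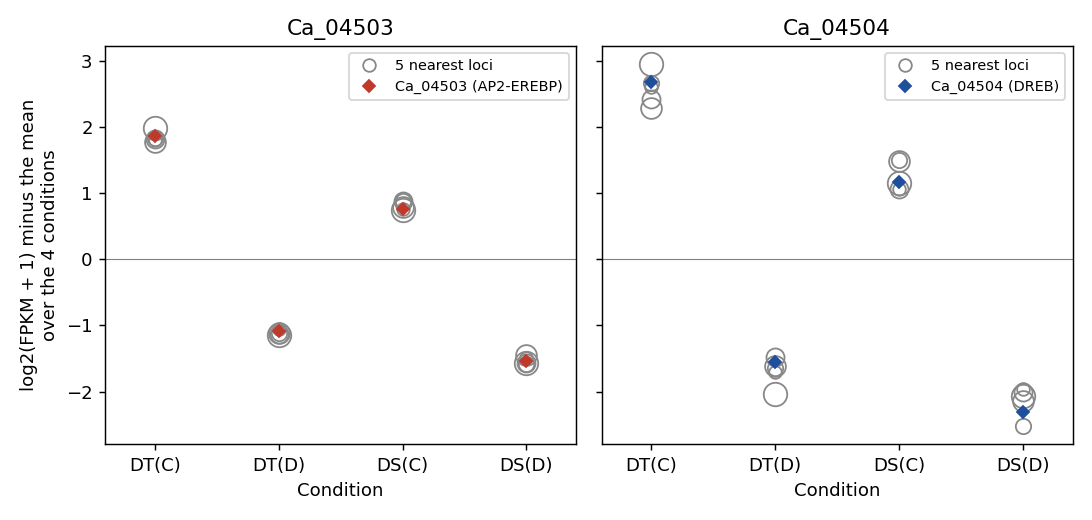
Log2(FPKM + 1) minus its mean over the 4 conditions (y) in each condition (x) for Ca_04503 (left, red) and Ca_04504 (right, blue), with the 5 loci of the smallest Euclidean distance as open circles whose size marks the locus. For both genes the values fall in the order DT(C), DS(C), DT(D), DS(D), from 1.86 to -1.54 for Ca_04503 and from 2.68 to -2.30 for Ca_04504.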

How the data were processed

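Root RNA of both genotypes was sequenced under control conditions and drought stress. After quality filtering (NGS QC Toolkit), the authors aligned the reads with TopHat (v2.1.1) to the genome of kabuli chickpea, built and merged transcript models with Cufflinks (v2.2.1) and Cuffmerge, and deposited FPKM values, 1 per locus and condition, with both libraries pooled. FPKM is already scaled to transcript length and to mapped fragments, and depth per library was not used. Cuffdiff P-values cannot be computed from pooled values.

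Log2 ratios were computed without a pseudocount. Shares of loci were counted at a log2 ratio of at least 1 or at most -1, over loci with an FPKM of at least 1 in one of the conditions compared, and a locus listed at 0 on one side of a comparison was counted by the sign of the difference and given no ratio. Genes named by rule are the pair, the study's QTL-hotspot transcription factors, identifier neighbours past the threshold in both drought comparisons, and the 5 loci nearest in profile. Of the 20 neighbours only Ca_04497 was past it in both, with FPKM under 1. Also named, outside these rules, were the adjoining genes, Ca_04499, Ca_05813 and the other hotspot loci lower in both drought comparisons. The pair and the lists were chosen with earlier results of these data known. No test was made. Calculations used Python 3.11.15, numpy 2.4.6, pandas 2.3.3 and matplotlib 3.10.9, and were tested on simulated data.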

Additional observations from a re-analysis of the deposited data

How the results depend on the processing

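No paired analysis was possible because the deposited columns pool the replicates of a condition, and for the same reason no replicate could be left out. Changes by less than a factor of 1.5 were taken as unchanged. The log2 ratios of Ca_04504 kept their direction under each alternative run, within -4.36 to -4.23 in DT(D/C), -3.59 to -3.13 in DS(D/C), 1.43 to 1.79 in DT(C)/DS(C) and 0.64 to 0.80 in DT(D)/DS(D). Those of Ca_04503 moved with a pseudocount of 1, to -2.94 for DT(D/C), -2.31 for DS(D/C) and 0.46 in DT(D)/DS(D), and its difference between the genotypes moved from 0.16 to -0.64. That difference was also below 0 with a pseudocount of 0.1, at -0.065, and after rescaling, at -0.27. The difference of Ca_04504 went from -0.71 to -1.15 after rescaling, which shifts such a difference equally at every locus. Adding a constant shrinks the ratios of low values by construction.

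The counts of loci past the threshold moved more. Without the expression filter, 2019 loci were higher in DT(D/C), 2883 higher in DS(D/C), 3551 higher and 1693 lower in DT(C)/DS(C), and 2459 higher and 1869 lower in DT(D)/DS(D). With a pseudocount of 1, the loci higher numbered 633 for DT(D/C), 919 for DS(D/C), 1458 in DT(C)/DS(C) and 894 in DT(D)/DS(D). Rescaling every column to an equal total gave 4030 loci higher and 951 loci lower in DS(D/C), and 3552 higher and 693 lower in DT(C)/DS(C). As deposited, 1023 loci were higher in DT(D/C), 1650 higher and 1741 lower in DS(D/C), 2244 higher and 1045 lower in DT(C)/DS(C), and 1367 higher and 1033 lower in DT(D)/DS(D). After rescaling, 5 of the 10 transcription factors and 3 of the 14 neighbours counted were higher in DS(D/C), where none had been. The 1 transcription factor lower in each drought comparison was then within the threshold. The low drought values of Ca_04503 rest on an unknown number of fragments.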
